A study of Mus musculus with 3 samples.

Results

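Of 56 tested genes of synaptic vesicle release, 36 were higher in neurons of the dorsal root ganglia (DRG) than in the mean of other cell classes. Of all genes tested 32.8% were. The subtypes of these neurons differed in which paralogs they held. The set comprised 65 of the 32227 genes in the count tables. It was taken by symbol alone, whatever the level: the numbered synaptotagmins (Syt), syntaxins (Stx), vesicle-associated membrane proteins (Vamp), complexins (Cplx), RIM proteins (Rims), Munc13 proteins (Unc13), SNAP and syntaxin-binding proteins (Snap, Stxbp) and the Sv2 glycoproteins. They were ordered in 8 role groups and a list of 43 other presynaptic genes is counted beside them.

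Nuclear RNA was sequenced by PIP-seq, which captures nuclei with barcoded beads and tags each transcript from its 3′ end with a unique molecular identifier (UMI). The tissue was lumbar DRG (L3 to L5) of male C57BL/6 mice with no treatment named. The sex is that of the labels, whereas the methods of the study list aged mice as female. A single library stood for the adult age (3 months) and 2 for the aged (21 months). These ages follow the labels of the samples, from which the text of the series departs, and how many mice entered a library is not stated. An effect of age and a peculiarity of the lone adult library cannot be told apart.

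The libraries held 69045987 to 167664164 UMIs, and barcodes with more than 1000 genes, taken as nuclei, numbered 11518, 5130 and 2611 (adult, aged replicate 1, aged replicate 2, the order of all values below). At most 1 barcode was shared by any pair of libraries. Nuclei were clustered without the 65 genes or the 43 other presynaptic genes, and clusters were named from marker genes, so that a name ends in "like". Neuron-like nuclei numbered 3602, 1385 and 883 in 11 clusters. A further 5 neuronal clusters of 943, 1026 and 414 barcodes were low in Malat1, an RNA retained in the nucleus, and are treated apart. The 3 mixed clusters were left out and no doublet caller was run, so doublets are not shown to have been removed. All 10 neuronal markers were detected in every class, and their summed level ran from 5472 to 6770 counts per 1e6 UMIs (CPM) in neuron-like nuclei and from 702 to 4728 CPM in the other 7 classes. The 5 markers of non-myelinating Schwann cells (NMSC) summed to 11879 to 12224 CPM in NMSC-like and to 10143 to 14776 CPM in satellite glial cell (SGC)-like nuclei, so they did not part these classes by themselves. When nuclei were assigned by marker scores instead, as an alternative, only 1700 nuclei of the neuron-like clusters were assigned to neuron, 1256 to NMSC and 1698 to no class. Of 810 nuclei of the NMSC-like cluster, 127 were assigned to NMSC, 161 to fibroblast, 96 to SGC and 204 to no class. That alternative thus rests on mixed classes, and the NMSC-like name is less secure than its markers imply. Free RNA, taken from barcodes of up to 100 UMIs, is given below as the background of each library.

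In a nerve terminal, vesicles are docked and primed at the active zone by RIM and Munc13 proteins. Fusion is driven by a complex of SNARE proteins, Snap25 and syntaxin-1 on the plasma membrane and synaptobrevin (Vamp1 or Vamp2) on the vesicle, while complexins clamp and assist the complex and synaptotagmins trigger fusion when calcium enters. DRG neurons release glutamate and peptides in the spinal cord and from peripheral endings, and relatives of the same proteins serve the Golgi, endosomes, lysosomes and granules of every cell.

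The promoters of 4 genes are shown as examples from opposite ends of the neuron subtypes, chosen after their values were seen; other genes, such as Syt10 and Syt16, spanned a wider range. Syt2 and Vamp1 were high in large-fiber-like neurons, and Syt9 and Unc13c in Mrgprd and Sst itch-like neurons. Each is the 250 bases before the start of the gene in RefSeq (GRCm38.p6), written 5′ to 3′ on the strand of the gene, with the GC box (GGGCGG, or CCGCCC when it lies on the other strand) in capitals. The windows are chr1:134646362-134646611 (plus strand) for Syt2, chr6:125215331-125215580 (plus) for Vamp1, chr7:107370540-107370789 (plus) for Syt9 and chr9:73969038-73969287 (minus) for Unc13c.
Syt2: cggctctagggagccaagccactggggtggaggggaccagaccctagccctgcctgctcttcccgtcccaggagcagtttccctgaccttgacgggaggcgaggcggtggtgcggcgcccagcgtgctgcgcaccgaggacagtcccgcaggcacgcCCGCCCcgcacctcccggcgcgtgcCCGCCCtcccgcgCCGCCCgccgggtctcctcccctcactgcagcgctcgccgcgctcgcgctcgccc
Vamp1: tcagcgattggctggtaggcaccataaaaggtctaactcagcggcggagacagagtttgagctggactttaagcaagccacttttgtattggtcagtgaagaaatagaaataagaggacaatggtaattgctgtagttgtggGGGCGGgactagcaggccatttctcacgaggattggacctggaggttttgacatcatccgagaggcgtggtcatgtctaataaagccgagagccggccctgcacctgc
Syt9: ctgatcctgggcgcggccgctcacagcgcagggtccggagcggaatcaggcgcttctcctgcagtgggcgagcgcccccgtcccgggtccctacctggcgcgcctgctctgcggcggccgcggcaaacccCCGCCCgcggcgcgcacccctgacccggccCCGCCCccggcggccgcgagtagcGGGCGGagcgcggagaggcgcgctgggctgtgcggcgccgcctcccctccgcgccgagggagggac
Unc13c: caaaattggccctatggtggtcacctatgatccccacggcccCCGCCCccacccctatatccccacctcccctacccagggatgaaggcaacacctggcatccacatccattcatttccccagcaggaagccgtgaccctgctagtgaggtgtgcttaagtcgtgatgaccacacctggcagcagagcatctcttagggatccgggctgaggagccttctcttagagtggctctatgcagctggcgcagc
The Syt2 and Syt9 windows held 3 GC boxes each and were 76% and 80.4% G or C. The Vamp1 and Unc13c windows held 1 each and were 50.4% and 58.8% G or C, so base composition did not divide along the pairs of genes that were high in the same subtypes. A promoter was found for 50 of the 65 genes. A GC box on either strand stood in 34 of these 50 (68%) and in 32.7% of 32851 RefSeq promoter windows of the same length. TATAAA, the core of the TATA box, stood in 2 of 50 (4%) and in 12.4% of all windows. The letters TTCAGCACC and GGACAGCGC, from the left and right parts of the site of the neuronal repressor REST, were in 0 of 50 and in 0.301% and 0.304% of all windows, which says only that these letters are not in these windows. The complete cAMP response element TGACGTCA was found in 1 (Stxbp3) of 50 and in 1.55% of all windows. The windows of the 50 genes had a median of 61.6% G or C, against 52.4% over all, and the table of all windows holds several for some genes.

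The levels of each gene were first compared between classes of nuclei. UMIs were summed per class and library, and the neuron-like sum was set against the average of the remaining 7 classes by edgeR's quasi-likelihood test, with the library as a block and Benjamini-Hochberg adjustment over 14273 genes. Of the 65 genes, 56 passed the filter on low counts. Among these, 36 were higher in neuron-like nuclei, against 32.8% of all genes tested, 13 were lower, against 31.9%, and 7 did not pass the threshold. Fold changes are scaled by TMM and can differ from ratios of CPM. The median log2 fold change of the 56 was 1.07, while that of all genes was -0.02. Of the other presynaptic genes 36 of 39 tested were higher, led by the tomosyn paralog Stxbp5l (4.51), the granule priming factor Cadps (4.46) and the active zone protein Erc2 (4.44), and 1 was lower. In CPM, 29 of the 65 genes had their highest class in neuron-like, 12 in myeloid-like, 7 in lymphocyte-like and 6 in fibroblast-like nuclei. The same count was not made over all genes, so these are not read as particular to the set. Since nuclei were grouped from the same libraries, p-values describe how steady a difference was over the 3 libraries, which the study calls biological replicates without giving the mice in each.

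**Figure D1:**
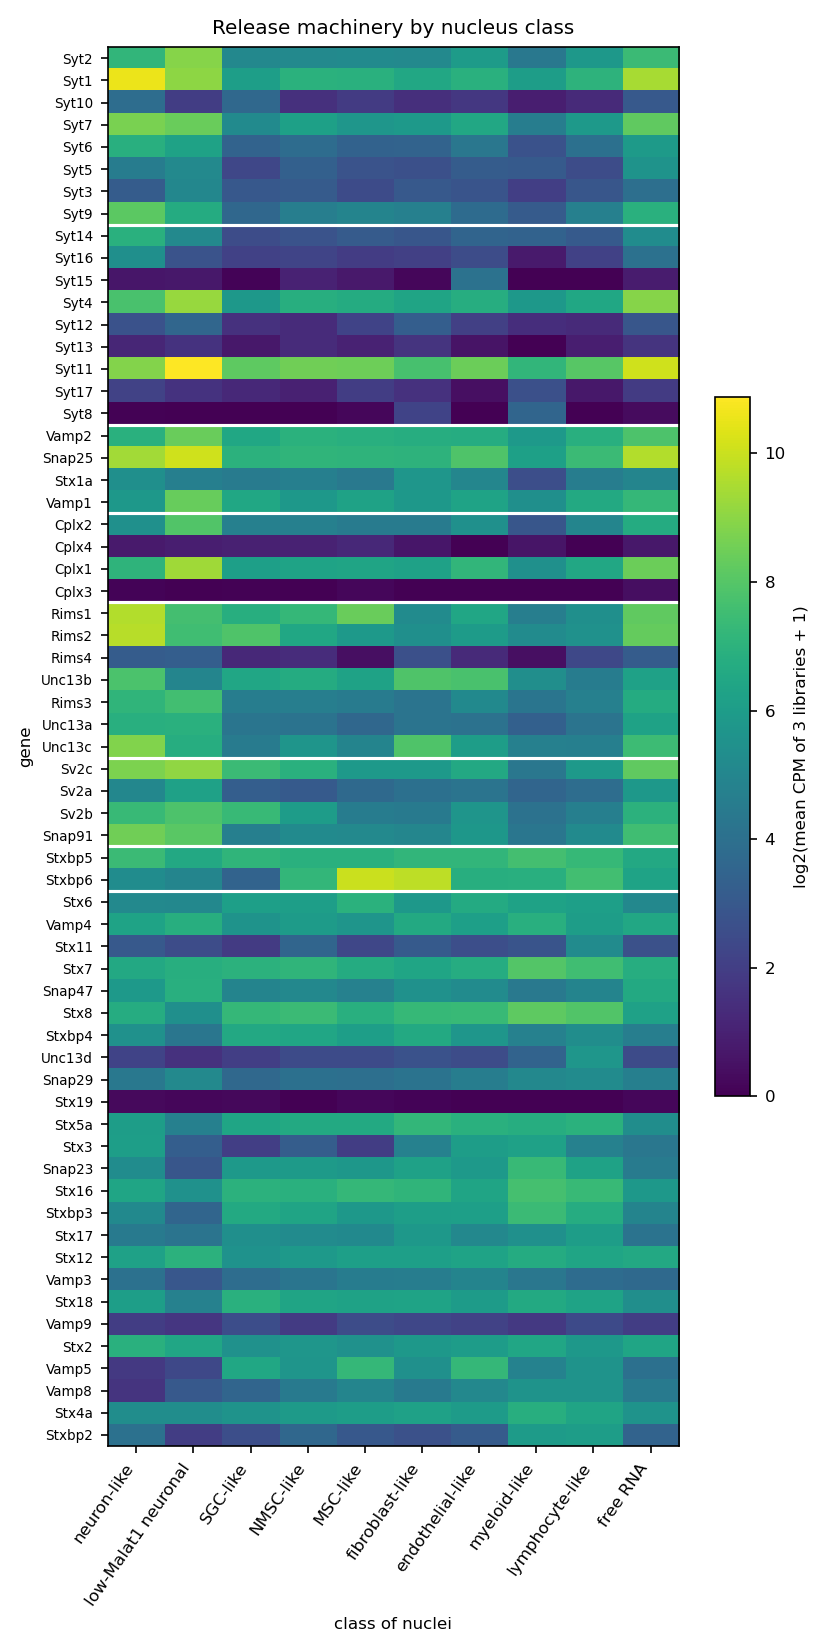
The heat map gives the mean level of 63 of the 65 genes over the 3 libraries as log2(CPM + 1), with genes in rows (white lines part the role groups) and classes of nuclei and free RNA in columns. Syt1 and Snap25 were brightest in the neuronal columns and in free RNA, and Rims2 in neuron-like nuclei, its low-Malat1 column being dimmer than that of SGC-like nuclei. Stxbp6 was brightest in myelinating Schwann cell (MSC)-like and fibroblast-like nuclei. Levels are to be compared along a row, since counts were not scaled for transcript length.

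All 8 synaptotagmins that act as calcium sensors at vesicles or granules were higher in neuron-like nuclei. Syt1, the fast sensor of most synapses, stood at 1683, 1343 and 1506 CPM in neuron-like nuclei and at 71.6, 57.7 and 73.2 CPM in SGC-like nuclei, the glia that wrap the neuronal somas. The groups did not overlap, and the log2 fold change over the other classes was 4.15 ± 0.15 (SE, adjusted p = 1.5e-16). Free RNA held Syt1 at 731, 604 and 746 CPM, above SGC-like and below neuron-like nuclei in each library. Syt9, a fast sensor that also serves dense-core granules, was at 217, 286 and 347 CPM in neuron-like and at 11.6, 11.8 and 11.3 CPM in SGC-like nuclei (log2 fold change 4.26 ± 0.16). Syt7, a slow sensor of high calcium affinity, had a log2 fold change of 3.24 ± 0.13, and Syt6 one of 3.58 ± 0.17. Syt3, a sensor of the same slow kind, was close to the threshold, with 8.69, 7.5 and 7.39 CPM in neuron-like and 5.95, 9.17 and 6.15 CPM in SGC-like nuclei (0.57 ± 0.24, adjusted p = 0.039). Syt2 (2.24 ± 0.13), Syt5 (2.19 ± 0.25) and Syt10 (2.82 ± 0.31) lay between.

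Among the other synaptotagmins, 4 of the 5 tested were higher in neuron-like nuclei. Syt14 showed a log2 fold change of 4.38 ± 0.18, the highest of the set, with 84.4, 134 and 142 CPM in neuron-like and 4.39, 4.14 and 5.63 CPM in SGC-like nuclei. Syt16 followed with 3.96 ± 0.21. Syt4 and Syt11, which do not sense calcium in the manner of Syt1, were higher by 1.64 ± 0.12 and 1.03 ± 0.11. Both were nevertheless richer in free RNA than in neuron-like nuclei in each library: Syt11 was at 916, 1114 and 1279 CPM in free RNA and at 572, 449 and 383 CPM in neuron-like nuclei. Syt15 did not pass in neurons (adjusted p = 0.25) and was instead seen in endothelial-like nuclei, at 19.7, 10.3 and 19.2 CPM from 14, 9 and 6 UMIs.

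The SNAREs of the synapse differed in how far they leaned to neuron-like nuclei. Snap25 stood at 748, 637 and 589 CPM in neuron-like and at 103, 137 and 138 CPM in SGC-like nuclei, a log2 fold change of 2.53 ± 0.12 over the other classes. The syntaxin Stx1a was higher by less (1.06 ± 0.15), and Vamp2 by 0.47 ± 0.09, over the mean of the other classes. Stx1a was at 38.6, 39 and 45.9 CPM in neuron-like but at 46, 47.3 and 62.9 CPM in fibroblast-like nuclei, and Vamp2 at 111, 128 and 114 CPM in neuron-like and at 120, 128 and 123 CPM in NMSC-like ones. Vamp1 did not pass the test: it was at 54.7, 63.3 and 44.6 CPM in neuron-like, at 87.3, 90 and 89.1 CPM in SGC-like nuclei and at 157, 150 and 141 CPM in free RNA (-0.09 ± 0.11, adjusted p = 0.47). The gene overlaps Cd27, a lymphocyte gene, and Tapbpl on the other strand, and whether strand was used in counting is not stated, which leaves its level outside neurons uncertain. The complexins Cplx1 and Cplx2 were higher by 1.04 ± 0.12 and 1.11 ± 0.15 over the mean of the other classes, yet both lay in free RNA above neuron-like nuclei in each library. The class with the highest mean of Cplx1 was endothelial-like, at 144 CPM, rather than neuron-like.

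All 6 genes of the active zone that were tested were higher, with Rims2 at 789, 832 and 918 CPM in neuron-like nuclei (4.01 ± 0.18), Rims1 at 850, 732 and 801 CPM (3.54 ± 0.23), and Unc13c (3.54 ± 0.19), Unc13a (3.14 ± 0.17) and Rims3 (2.79 ± 0.14) following. Unc13b, the broadly expressed Munc13 protein, was higher by 1.65 ± 0.14 over the mean of the other classes, while fibroblast-like nuclei (203, 239 and 261 CPM) overlapped neuron-like ones (159, 239 and 270 CPM). The vesicle glycoproteins Sv2c (2.87 ± 0.12), Sv2b (2.39 ± 0.15) and Sv2a (1.75 ± 0.18) and the clathrin adaptor Snap91 (3.84 ± 0.15) were all higher. Sv2b in SGC-like nuclei, at 144, 179 and 152 CPM, overlapped neuron-like ones, at 159, 163 and 159 CPM. Stxbp5 (tomosyn), which binds SNAREs and holds back fusion, was higher by 0.44 ± 0.10. Counted against free RNA, 29 of the 65 genes were richer in neuron-like nuclei in all 3 libraries and 24 were poorer. This count was not made over all genes either, so it describes these genes only.

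Of 23 relatives that serve other membranes, 6 were higher and 12 lower in neuron-like nuclei, against 32.8% and 31.9% of all genes. Vamp5, a muscle and vascular relative of synaptobrevin, was lowest, with 3.15, 2.94 and 1.43 CPM in neuron-like against 153, 147 and 150 CPM in endothelial-like and 108, 77.5 and 78.4 CPM in SGC-like nuclei (-4.39 ± 0.29). Vamp8, which acts in endosomes and granules, followed at -3.43 ± 0.19, and Stxbp3 (Munc18-3) at -1.08 ± 0.12. Stx3, a syntaxin of apical membranes and ribbon synapses, was the strongest exception, higher by 2.23 ± 0.19, as was Stx2 (1.34 ± 0.12). Stxbp6 (amisyn), a SNARE-like protein without a membrane anchor, was lower in neurons (38.7, 46.2 and 29.8 CPM, -1.82 ± 0.37) than in MSC-like (807, 1152 and 1108 CPM) and fibroblast-like nuclei (742, 977 and 910 CPM).

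Each non-neuronal class was set against the mean of the others in the same fit. In each of them except endothelial-like nuclei the share of the 56 genes called higher was below that of all genes, so the genes named are single cases. In MSC-like nuclei 6 genes were higher and 14 lower, against 19.8% and 17.6% of all genes, led by Stxbp6 (3.41 ± 0.27), Vamp5 (2.14 ± 0.21) and Rims1 (1.94 ± 0.27). In SGC-like nuclei 9 were higher and 16 lower (23.2% and 24.9% of all genes), led by Sv2b (2.34 ± 0.16), Syt10 (2.22 ± 0.38) and Rims2 (1.87 ± 0.21). Of these, Sv2b lay above free RNA (128, 126 and 119 CPM) in each library, whereas Rims2, at 186, 253 and 266 CPM, lay below it (337, 288 and 317 CPM). Syt10, at 2.65, 16.3 and 16.9 CPM against 8.04, 6.68 and 6.74 CPM in free RNA, was below it in the adult library and above it in the aged ones. Rims1 in MSC-like nuclei, at 125, 453 and 433 CPM against 349, 275 and 271 CPM, did the same. Fibroblast-like nuclei had 8 genes higher and 13 lower (19.9% and 14.6% of all genes), with Stxbp6 (3.02 ± 0.27), Unc13c (2.15 ± 0.21) and Unc13b (1.43 ± 0.15) in front. Their Unc13c level, 181, 238 and 286 CPM, was above that of free RNA, 170, 178 and 184 CPM.

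In lymphocyte-like nuclei 9 genes were higher and 10 lower (19.8% and 18% of all genes), and genes of B cells such as Pax5 and Ms4a1 were among those leading the cluster. Unc13d (Munc13-4), Stx11 and Stxbp2 (Munc18-2), which are best known from granule release by cytotoxic lymphocytes, were the leading 3, with log2 fold changes of 3.20 ± 0.33, 2.46 ± 0.38 and 2.31 ± 0.22. Unc13d was at 33.1, 44.3 and 78.3 CPM in lymphocyte-like and at 4.11, 3.21 and 3.16 CPM in neuron-like nuclei, from 18, 20 and 30 lymphocyte UMIs. In myeloid-like nuclei 13 were higher and 26 lower (23.4% and 24.1%), led by Stxbp2 (2.52 ± 0.22), Stx3 (2.35 ± 0.29) and Snap23 (1.46 ± 0.11), the Snap25 relative of non-neuronal cells, at 172, 161 and 154 CPM. Myeloid-like Stx3 rested on 4 UMIs in the adult library. Endothelial-like nuclei had 10 higher and 4 lower (16.2% and 9.45%), among them Vamp5 (2.00 ± 0.24), Stx3 (1.88 ± 0.29) and Unc13b (1.29 ± 0.17). NMSC-like nuclei had 5 higher and 2 lower (14.0% and 9.04%), all within 0.64 log2 units upward.

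The other 9 genes did not pass the filter on low counts in the test between classes, which does not follow the total UMIs alone. Stx19 (32 UMIs over the 8 classes), Syt8 (54) and Cplx3 (14), a complexin of retinal ribbon synapses, were tested in no comparison, and at this depth no level can be set for them. Cplx4, Syt12, Syt13, Rims4, Vamp9 and Syt17 held 99 to 1038 UMIs and were tested in the larger sums. In neuron-like nuclei Rims4 was at 8.56, 7.5 and 7.54 CPM and Syt17 at 3.53, 3.48 and 3.35 CPM.

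Neuron-like nuclei were then divided into 9 subtypes of 20 or more nuclei in each library. Large-fiber-like nuclei formed a pair of clusters, told apart here by leading genes (Nxph1 or Ntng1), and the Kcnt2 and the Skor2 cluster are also called by leading genes, having reached no subtype name. The others were like cold-sensing neurons, C-fiber low-threshold mechanoreceptors (C-LTMR), Mrgprd non-peptidergic, Sst itch and peptidergic nociceptors. Of the 65 genes 60 were tested, and 57 differed between subtypes at an adjusted p under 0.05, a share to be read against 79.0% of all genes. The 3 that did not pass were Vamp3 (adjusted p = 0.30), Vamp5 (0.89) and Vamp9 (0.069). Mean levels of Unc13a spanned 1.77-fold from the lowest to the highest subtype and those of Snap91 2.02-fold, while Syt9 spanned 30.7-fold, Unc13c 48.4-fold and Syt16 71.9-fold.

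**Figure D2:**
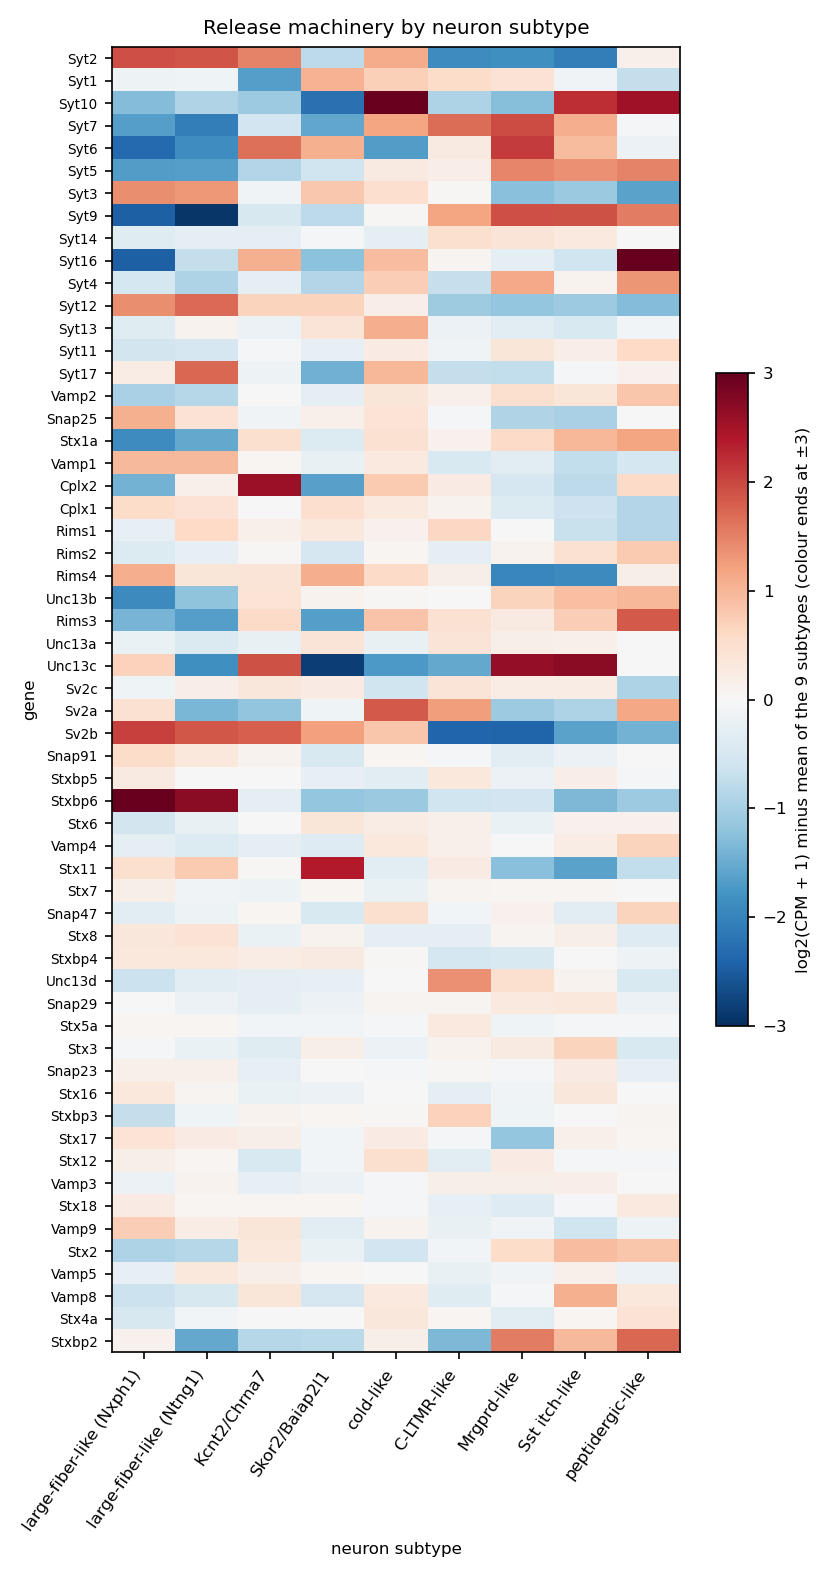
The heat map gives, for 58 of the 60 genes tested, the level in each of 9 neuron subtypes as log2(CPM + 1) minus the mean over subtypes (red higher, blue lower, colour ends at ±3), with the 3 libraries averaged. Syt2, Sv2b and Stxbp6 were red in the large-fiber-like columns where Syt7, Syt9 and Stx1a were blue, and the pattern turned over in the Mrgprd, Sst itch and peptidergic-like columns.

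Large-fiber-like neurons, which in this tissue include myelinated touch and muscle afferents, held the highest levels of Syt2. Syt2, the fast sensor of hindbrain and motor synapses, was at 367, 321 and 337 CPM in the Nxph1 subtype and at 300, 299 and 391 CPM in the Ntng1 subtype, against 24.6, 15.8 and 19.9 CPM in Sst itch-like nuclei. No library of one group reached the other, and the log2 fold changes over the other subtypes were 2.28 ± 0.15 and 2.16 ± 0.15. Syt3 was raised in the same subtypes (1.88 ± 0.17 and 1.66 ± 0.17). Syt9 was reversed, with 13.5, 18.4 and 19.8 CPM in the Ntng1 subtype (-3.34 ± 0.14) and 443, 533 and 613 CPM in Mrgprd-like nuclei (2.28 ± 0.08). Syt7 was at 57.7, 49.1 and 50.9 CPM in the Ntng1 subtype (-2.36 ± 0.11 against the mean of the other subtypes) and peaked at 1023, 788 and 831 CPM in Mrgprd-like nuclei.

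Syt1 varied by less and in another order. The Skor2 cluster was highest at 3376, 3084 and 2839 CPM (1.22 ± 0.08), cold-like nuclei followed at 2861, 2169 and 2307 CPM, and the Kcnt2 cluster was lowest at 482, 467 and 475 CPM (-1.85 ± 0.10). These neighbours at the top overlapped, since the lowest Skor2 value, 2839 CPM, was under the highest cold-like value, 2861 CPM, which came from another library. Large-fiber-like (1213 to 1647 CPM in both subtypes) and Sst itch-like nuclei (1304 to 1518 CPM) could not be ordered. Syt6 was highest in Mrgprd-like nuclei at 211, 226 and 251 CPM (2.44 ± 0.13) and next in the Kcnt2 cluster at 136, 159 and 206 CPM. Syt10, a sensor known from peptide-containing vesicles of the olfactory bulb, was at 51.6, 69.3 and 68.1 CPM in cold-like, 39.7, 45.4 and 51.8 CPM in peptidergic-like and 16.7, 47.4 and 44.5 CPM in Sst itch-like nuclei, and under 10 CPM in each library of the other subtypes. Its log2 fold change in cold-like nuclei, 3.50 ± 0.32, turned to -0.24 with classes from marker scores. Syt16 peaked in peptidergic-like nuclei at 133, 156 and 227 CPM, above every library of the next subtype (27.5, 43.9 and 43.1 CPM in the Kcnt2 cluster), with a log2 fold change of 3.56 ± 0.18.

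The synaptic SNAREs parted along the same line as Syt2 and Syt9. Vamp1 was at 92.6, 120 and 98.4 CPM in the Nxph1 subtype and at 33.4, 33.4 and 25.9 CPM in Sst itch-like nuclei (1.17 ± 0.13 in the former). Vamp2 ran the other way, at 38.7, 60.1 and 58.2 CPM in the Nxph1 subtype and at 186, 190 and 177 CPM in peptidergic-like nuclei (0.84 ± 0.09 in the latter). The syntaxin Stx1a was at 11.2, 5.55 and 6.39 CPM in the Nxph1 subtype (-2.05 ± 0.21) and at 69.1, 70.1 and 77.8 CPM in peptidergic-like nuclei (1.24 ± 0.13). Snap25 was highest in the Nxph1 subtype at 1621, 1180 and 1327 CPM (1.25 ± 0.07) and lowest in Sst itch-like (340, 316 and 348 CPM) and Mrgprd-like nuclei (363, 371 and 322 CPM), which overlapped.

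**Figure D3:**
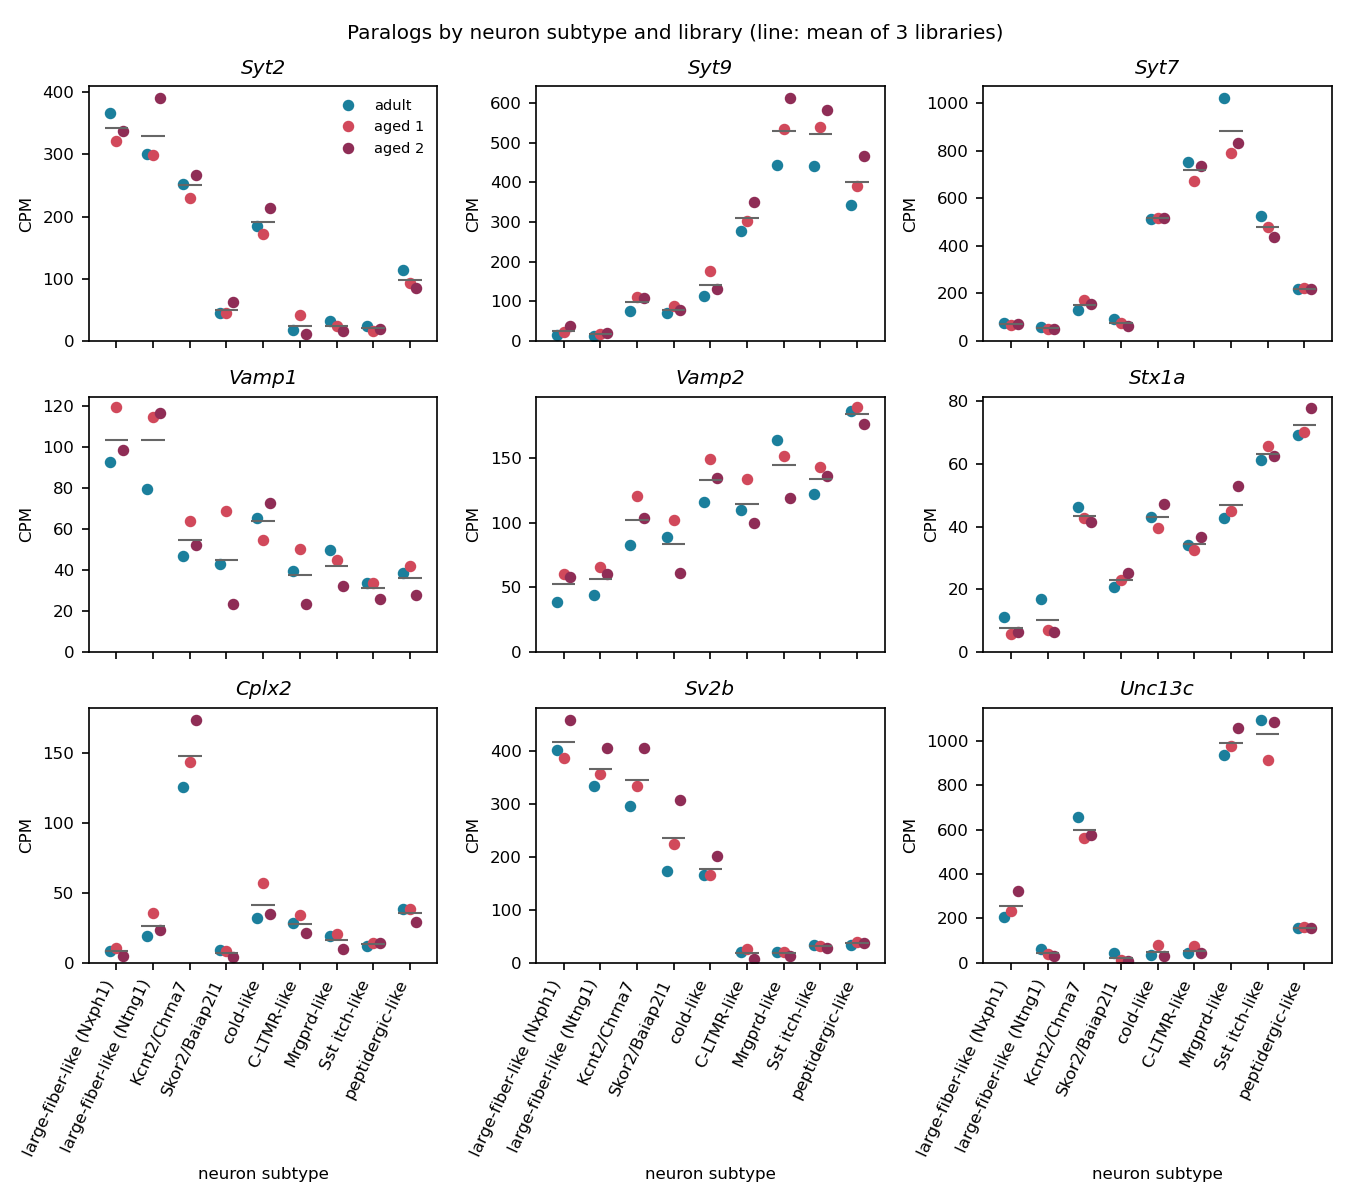
The levels of 9 genes are plotted in CPM by neuron subtype, a point for each library and a line at the mean of the 3. Syt2, Vamp1 and Sv2b stood high on the left, in large-fiber-like nuclei, and Syt9, Vamp2 and Stx1a on the right, in peptidergic-like nuclei (186, 190 and 177 CPM for Vamp2).

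Complexins and Munc13 proteins differed sharply between some subtypes. Cplx2 was at 126, 143 and 174 CPM in the Kcnt2 cluster (3.03 ± 0.12), above each library of the other 8 subtypes, the highest of which was 57.1 CPM. Cplx1 was more even, from 60.3 to 85.8 CPM in peptidergic-like to 184 to 230 CPM in Nxph1 nuclei. Unc13c, a Munc13 protein best known from the cerebellum, was at 938, 976 and 1060 CPM in Mrgprd-like nuclei (3.02 ± 0.17), at 1096, 914 and 1085 CPM in Sst itch-like nuclei (2.96 ± 0.18) and at 656, 564 and 579 CPM in the Kcnt2 cluster. In the Skor2 cluster it was at 43.9, 11.5 and 8.66 CPM, from 104, 7 and 13 UMIs (-2.93 ± 0.34). Unc13b fell from 261, 373 and 414 CPM in peptidergic-like to 38.1, 48.1 and 49.9 CPM in Nxph1 nuclei (-2.10 ± 0.12 in the latter), whereas Unc13a stayed between 79.2 and 175 CPM in all 9 subtypes.

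Of the RIM proteins, Rims3, a short form without the binding domain for Munc13, was highest in peptidergic-like nuclei at 344, 319 and 339 CPM (1.99 ± 0.09) and lowest in the Skor2 cluster at 29.1, 37.7 and 19.3 CPM (-1.90 ± 0.17). Rims1 and Rims2 had opposite ends: peptidergic-like nuclei were lowest for Rims1 (370, 405 and 453 CPM, -1.11 ± 0.12) and highest for Rims2 (1338, 1222 and 1425 CPM). Rims4 was at 0.842, 1.57 and 0.962 CPM in Mrgprd-like and at 16.1, 16 and 17.3 CPM in Nxph1 nuclei (-2.84 ± 0.28 in the former). Of the Sv2 glycoproteins, Sv2b was at 402, 386 and 458 CPM in the Nxph1 subtype and at 20.9, 20.1 and 12.6 CPM in Mrgprd-like nuclei (-2.68 ± 0.19). Sv2a was highest in cold-like nuclei at 112, 109 and 77.7 CPM (2.04 ± 0.14), and Sv2c, lowest in peptidergic-like nuclei at 193, 227 and 210 CPM (-1.14 ± 0.08), reached over 420 CPM in each library of 6 subtypes.

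A further 3 genes outside the vesicle core were as sharply placed. Stxbp6 was at 154, 197 and 265 CPM in the Nxph1 subtype (4.04 ± 0.22), at 110, 139 and 114 CPM in the Ntng1 subtype (3.13 ± 0.24) and under 25 CPM in every library of the other 7. Stx11 was at 27, 49.2 and 42.6 CPM in the Skor2 cluster (2.95 ± 0.19), above each library of the other subtypes. Stxbp2 was at 28.6, 26.7 and 37.4 CPM in peptidergic-like (2.01 ± 0.18) and 19.7, 27.6 and 34.8 CPM in Mrgprd-like nuclei (1.97 ± 0.18). By subtype, the genes called higher and lower numbered 23 and 22 in Nxph1 nuclei (23.4% of all genes either way), 18 and 19 in Ntng1 nuclei (21.6% and 20%), 21 and 17 in Mrgprd-like (24.3% and 19.7%), 21 and 15 in peptidergic-like (25.4% and 22.0%) and 18 and 16 in Sst itch-like nuclei (17.8% and 15.1%). They were 20 and 9 in cold-like (17.4% and 13.7%), 15 and 11 in C-LTMR-like nuclei (20.7% and 16.5%), 15 and 13 in the Kcnt2 (18% and 12.7%) and 12 and 15 in the Skor2 cluster (15.5% and 12.3%). Among the other presynaptic genes, the vesicular glutamate transporter Slc17a7 was higher in both large-fiber-like subtypes (2.75 ± 0.13 and 2.37 ± 0.13), as was Stxbp5l (2.55 ± 0.10 and 2.27 ± 0.10). The granule priming factor Cadps2 was higher in the Skor2 cluster (5.10 ± 0.14), and Synpr, a vesicle membrane protein, in Mrgprd-like nuclei (2.76 ± 0.11). The subtype names rest on markers, and Slc17a8, which was among those of C-LTMR, is not given for that reason.

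Few of these genes passed the test between aged and adult neuron-like nuclei. Of 62 tested, 2 were higher and 3 lower in the aged libraries, against 3.70% and 8.09% of all genes, and the median log2 fold change was 0.03. An unadjusted p under 0.05 was found for 15 of them, beside 5963 of all 21341 genes tested. The test has 1 residual degree of freedom, from the aged pair, and takes the lone adult library to vary as they do. Syt14 went from 84.4 CPM (adult) to 134 and 142 CPM (aged), a log2 fold change of 0.58 ± 0.14 (adjusted p = 0.015). Unc13b went from 159 CPM to 239 and 270 CPM (0.55 ± 0.15, adjusted p = 0.024). Syt11 was lower, at 572 CPM in the adult and 449 and 383 CPM in the aged libraries (-0.59 ± 0.14, adjusted p = 0.011). Sv2a went from 39 CPM to 29.2 and 26.1 CPM (-0.62 ± 0.15, adjusted p = 0.015). Vamp9, with 259, 69 and 66 UMIs, was at 4.29 CPM and then 2.07 and 2.43 CPM (-1.06 ± 0.28, adjusted p = 0.021).

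None of these 5 calls stood once free RNA was subtracted at 10% of each sum (adjusted p from 0.19 to 0.21), and when the low-Malat1 clusters were counted as neurons Vamp9 alone passed. The share of UMIs from Malat1 fell over the same libraries, from 4.70% in adult to 1.59% and 1.69% in aged neuron-like nuclei. It fell in each other class tested and in free RNA, in the latter from 2.77% to 1.49% and 1.33%. The part of the Malat1 share in the result was not tested. Snap25, at 748 CPM in the adult and 637 and 589 CPM in the aged libraries, just missed the threshold (-0.41 ± 0.13, adjusted p = 0.052), and Syt1, at 1683, 1343 and 1506 CPM, missed it as well (-0.37 ± 0.14, adjusted p = 0.094). All 8 calcium-sensor synaptotagmins and all 6 genes of the synaptic SNARE group remained on that side of it. Among the other presynaptic genes 1 of 42 passed, Sncg (γ-synuclein), which fell by 1.21 on the log2 scale and was at 694 CPM in the adult and 379 and 277 CPM in the aged libraries.

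**Figure D4:**
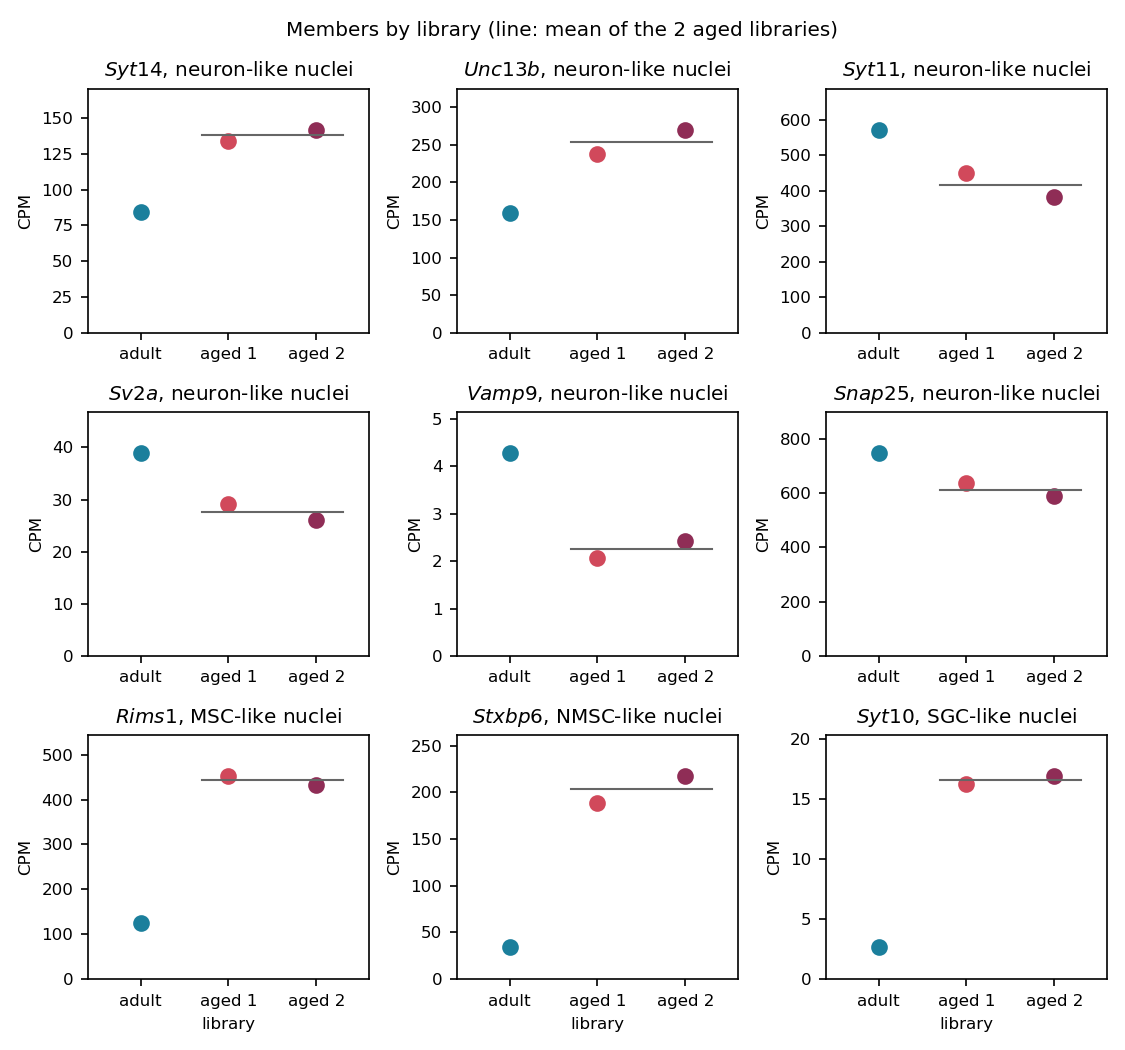
Levels in CPM are plotted for each library, with a line at the mean of the 2 aged libraries, for 6 genes in neuron-like nuclei and 3 genes in other classes. Neuronal differences such as Syt14 (84.4 against 134 and 142 CPM) were small beside those of Rims1 in MSC-like, Stxbp6 in NMSC-like and Syt10 in SGC-like nuclei.

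Fitted within the 9 subtypes, 26 of 503 gene-by-subtype tests passed, 8 upward and 18 downward, a share near that of all genes over the same subtypes (1.29% and 3.45%). Mrgprd-like nuclei held more calls than any other subtype, with 5 genes higher and 6 lower (6.72% and 9.59% of all genes). There Syt11 was at 823 CPM in the adult and 480 and 398 CPM in the aged libraries (-1.01 ± 0.19), and Syt14 at 101 CPM and then 177 and 168 CPM (0.68 ± 0.18). These nuclei came from a pair of clusters in unlike proportions: the cluster with a median of 3309.5 UMIs gave 486 of 826 adult, 152 of 333 and 84 of 246 aged nuclei, and the cluster with 31378 UMIs gave the others. In the Nxph1 subtype 1 gene was higher and 5 lower (1.28% and 5.01% of all genes). Of these, Snap25 fell from 1621 CPM to 1180 and 1327 CPM (-0.65 ± 0.15), Rims1 from 745 to 642 and 525 CPM (-0.62 ± 0.16) and Syt1 from 1529 to 1213 and 1291 CPM (-0.56 ± 0.15), while Syt4 went from 60.9 to 164 and 98.4 CPM (0.86 ± 0.21).

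In peptidergic-like nuclei 1 gene was higher and 2 lower (0.898% and 3.87%), again Syt14 (0.70 ± 0.18), Syt11 (-0.84 ± 0.15) and Sv2a (-0.70 ± 0.18). The 3 calls in the Ntng1 subtype were downward (1.91% of all genes), of which Syt10 rested on 55, 4 and 1 UMIs. In the Skor2 cluster 2 genes were lower (1.44%), Unc13c on 104, 7 and 13 UMIs (-2.36 ± 0.46) and Syt11 (-0.90 ± 0.24). Sst itch-like nuclei gave 1 call upward (0.208%), Syt10, at 16.7 CPM in the adult and 47.4 and 44.5 CPM in the aged libraries (1.29 ± 0.28). There was no call at an adjusted p under 0.05 in C-LTMR-like, cold-like or Kcnt2 nuclei with edgeR. There 4, 3 and 8 genes had an unadjusted p under 0.05, beside 1206 of 13591, 1133 of 12262 and 2320 of 15344 among all genes. Of all genes 0.258%, 0.0408% and 0.495% were higher there and 1.27%, 0.693% and 3.53% lower. The estimates of 8 genes (Syt14, Unc13b, Stx3, Stxbp5, Stx7, Stx17, Stx18 and Syt9) were above 0 in all 9 subtypes and those of Sv2a, Snap25 and Syt1 below 0, from the same 3 libraries each time. The same count was not made over all genes, so it is not read as particular to the set. With free RNA subtracted there were 8 calls in place of 26, and with DESeq2 there were 4.

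Outside neurons, larger differences with age were seen in single genes. These tests too have 1 residual degree of freedom, from the aged pair, so their p-values do not measure spread between adult libraries. The Malat1 share fell here as well, from 9.13% to 2.49% and 2.52% in SGC-like and from 6.64% to 2.18% and 2.13% in MSC-like nuclei. In NMSC-like nuclei it fell from 6.95% to 1.86% and 1.97%, and its part in the results was not tested. In MSC-like nuclei 5 genes were higher and 6 lower (5.08% and 6.97% of all genes). Rims1 stood at 125 CPM in the adult and 453 and 433 CPM in the aged libraries (1.76 ± 0.15), from 238, 1059 and 395 UMIs, and its paralog Rims2 at 64.5, 49.1 and 54.9 CPM. Over the same libraries the summed level of the 10 neuronal markers in these nuclei went down, from 2929 to 1867 and 1717 CPM, and that of the 9 MSC markers from 43375 to 18742 and 16910 CPM. Vamp5 (0.73 ± 0.18), Stx18 (0.69 ± 0.23), Stx6 (0.56 ± 0.19) and Stxbp6 (0.41 ± 0.10) were the other 4 higher genes. The lower ones were Sv2a (-1.52 ± 0.47), Sv2b (-1.03 ± 0.32), Vamp8 (-1.01 ± 0.29), Sv2c (-0.83 ± 0.23), Unc13c (-0.83 ± 0.30) and Cplx1 (-0.61 ± 0.20).

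In NMSC-like nuclei 1 gene was higher and 3 lower (3.27% and 3.68% of all genes). Stxbp6 was at 33.9 CPM in the adult and 189 and 218 CPM in the aged libraries (2.41 ± 0.31). The 7 fibroblast markers moved with it in these nuclei, from a sum of 500 CPM to 1315 and 1186 CPM, and Stxbp6 was itself at 742 to 977 CPM in fibroblast-like nuclei, while the part of fibroblast RNA in the result was not tested. In SGC-like nuclei 2 were higher and 5 lower (4.21% and 6.10%). Syt10 was at 2.65 CPM in the adult and 16.3 and 16.9 CPM in the aged libraries (2.49 ± 0.35, adjusted p = 9.9e-04), from 29, 55 and 33 UMIs, with free RNA at 8.04, 6.68 and 6.74 CPM. SGC-like nuclei came from a pair of clusters in unlike proportions, one of which gave 1458 of 3334 adult nuclei but 92 of 436 and 30 of 232 aged ones, and the part of this in the age differences was not tested. Unc13b (0.63 ± 0.14) was the other higher gene, and Sv2c (-0.64 ± 0.12) and Vamp5 (-0.61 ± 0.13) led the lower ones. Neuronal markers summed to 1697, 1792 and 1526 CPM in SGC-like nuclei, and their part in the Syt10 result was not tested.

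In fibroblast-like nuclei 1 gene was higher and 4 lower (2.40% and 3.18%). Rims1 (-1.36 ± 0.30), Sv2b (-1.19 ± 0.35), Syt2 (-0.96 ± 0.30) and Syt1 (-0.77 ± 0.24) fell there, and neuronal markers went from a sum of 2508 to 2266 and 1465 CPM, and the part of those markers in the result was not tested. Endothelial-like (0.652% of all genes higher, 1.93% lower) and myeloid-like nuclei (1.94% lower) gave 1 lower gene each, Rims2 (-1.52 ± 0.38) and Stxbp6 (-2.40 ± 0.47). Lymphocyte-like nuclei gave 0 calls with edgeR (0.414% of all genes higher, 1.66% lower). In them 12 genes had an unadjusted p under 0.05, beside 1046 of 9905 among all genes. The age difference itself was tested between neuron-like and SGC-like nuclei, and 3 genes passed in each direction of 62 (0.973% and 1.84% of all genes). These 6 calls came to 1 with DESeq2, to 0 with classes from marker scores, to 2 with more than 2000 genes per nucleus and to 1 with low-Malat1 clusters counted as neuron-like. The test of the difference also has 1 residual degree of freedom, from the aged pair. Its p-values rest on a spread pooled over genes and do not measure spread between adult libraries. The neuronal minus the SGC change was -2.31 for Syt10, whose neuronal change was 0.19 ± 0.18, and -0.66 for Rims1, at -0.28 ± 0.14 in neurons and 0.39 ± 0.14 in SGC-like nuclei.

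In the 5 low-Malat1 clusters 9 or 10 of the 10 neuronal markers passed the naming rule, with a summed level of 17074 to 22822 CPM, above that of other neuron-like nuclei. They made up 20.7%, 42.6% and 31.9% of neuronal barcodes in the 3 libraries. Their Malat1 share was 1.03%, 0.279% and 0.283%, below that of free RNA in each library (2.77%, 1.49% and 1.33%). Their mitochondrial share was 0.562% to 0.755%, against 0.103% to 0.187% in neuron-like nuclei, and free RNA had 0.662% to 0.797%. Whether these barcodes hold intact nuclei was not tested. Tested against the other neuron-like nuclei with the library as a block, 24 release genes were higher and 27 lower of 61 (33.7% and 35.9% of all genes). The median log2 fold change was -0.18, and that of all genes -0.12.

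Of the synaptic SNARE group, 5 of 6 were higher. Vamp1 was at 285, 351 and 338 CPM in low-Malat1 and at 54.7, 63.3 and 44.6 CPM in other neuron-like nuclei (2.62 ± 0.12). Stx1a, the exception, was at 25.6, 24.9 and 24.1 CPM against 38.6, 39 and 45.9 CPM (-0.67 ± 0.12). Of 3 complexins tested 2 were higher and Cplx4 did not pass (0.29 ± 0.45), with Cplx1 at 599, 684 and 651 CPM against 137, 148 and 116 CPM (2.31 ± 0.10) and Cplx2 by 2.52 ± 0.10. Syt11 was at 2097, 1728 and 1826 CPM against 572, 449 and 383 CPM (2.06 ± 0.10), with Syt3 (2.04 ± 0.14), Syt2 (1.80 ± 0.11) and Vamp2 (1.54 ± 0.10) also up. Of 7 active zone genes 4 were lower, 1 was higher (Rims3, 0.49 ± 0.09), and Rims4 (0.18 ± 0.20) and Unc13a (0.07 ± 0.09) did not pass. Rims1 was at 269, 159 and 169 CPM against 850, 732 and 801 CPM (-2.0 ± 0.12), Rims2 fell by 2.14 ± 0.11 and Unc13c by 2.01 ± 0.11, and Unc13b was at 28.3, 24.5 and 36.6 CPM against 159, 239 and 270 CPM (-2.85 ± 0.14). Syt1, the neuronal sensor, was at 651, 438 and 494 CPM against 1683, 1343 and 1506 CPM (-1.50 ± 0.09). Stx3, Syt16 and Snap23 were lower still (-2.86 ± 0.18, -2.81 ± 0.20 and -2.41 ± 0.16).

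Low-Malat1 clusters do not hold the subtypes in the same shares as the others, so they were also set against nuclei of their own subtype name, an alternative chosen after seeing the data. For large-fiber-like barcodes these were nuclei of the Nxph1 subtype alone, without the Ntng1 subtype. In Mrgprd, peptidergic, C-LTMR and large-fiber-like pairs alike, 10 of the 24 higher genes passed, among them Cplx1, Cplx2, Snap47, Syt2, Syt4, Syt11, Vamp1 and Vamp2, as did 15 of the 27 lower ones, Syt1, Rims1, Rims2, Unc13b, Stx3 and Syt14 among them. Of the 18026 genes tested against all other neuron-like nuclei, 13.7% and 13.5% passed in this way, against these 10 and 15 of 61. The matched changes were smaller for some: Vamp1 was higher by 1.26 in Mrgprd-like and by 1.40 in C-LTMR-like pairs, and Cplx1 by 1.39 in Mrgprd-like ones. Direction turned for some: in large-fiber-like barcodes against the Nxph1 subtype the change was -0.06 for Snap25 (0.76 against all others), 0.57 for Stx1a, 0.55 for Syt7, 0.14 for Syt9, 1.84 for Syt6 (-0.55 against all others) and -0.41 for Sv2b (0.55 against all others), of which Syt6, Syt7 and Sv2b passed the test. The Nxph1 subtype was itself the lowest of the subtypes for Syt6 and Stx1a and the highest for Snap25 and Sv2b. A comparison with the Ntng1 subtype was not run. Over the 4 pairs the calls numbered 18, 21, 16 and 18 higher (28.1%, 32.5%, 27.8% and 35.8% of all genes) and 22, 25, 20 and 24 lower (31.7%, 34.2%, 31.4% and 35.9%). Subtype patterns were kept in part. Vamp1 was at 514, 590 and 585 CPM in low-Malat1 large-fiber-like and at 111, 110 and 128 CPM in low-Malat1 Mrgprd-like barcodes. Syt9 was at 17.5, 26.2 and 42.6 CPM in the former and 219, 260 and 322 CPM in the latter. Other genes departed from the subtype patterns. In low-Malat1 peptidergic-like barcodes Cplx2 was at 435, 572 and 600 CPM and Syt2 at 448, 498 and 429 CPM. Within the peptidergic-like pair Cplx2 was higher by 3.86, Sv2b by 2.78 and Syt2 by 2.20. Whether the barcodes of a pair are the same kind of neuron was not tested. Of 42 other presynaptic genes 23 were higher and 15 lower, among them Slc17a7 (2.65 ± 0.15), Rab3a (2.24 ± 0.11) and Sncb (2.19 ± 0.10) higher and Syn3 (-3.13 ± 0.21), Ppfia2 (-2.28 ± 0.11) and Erc2 (-1.94 ± 0.09) lower.

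**Figure D5:**
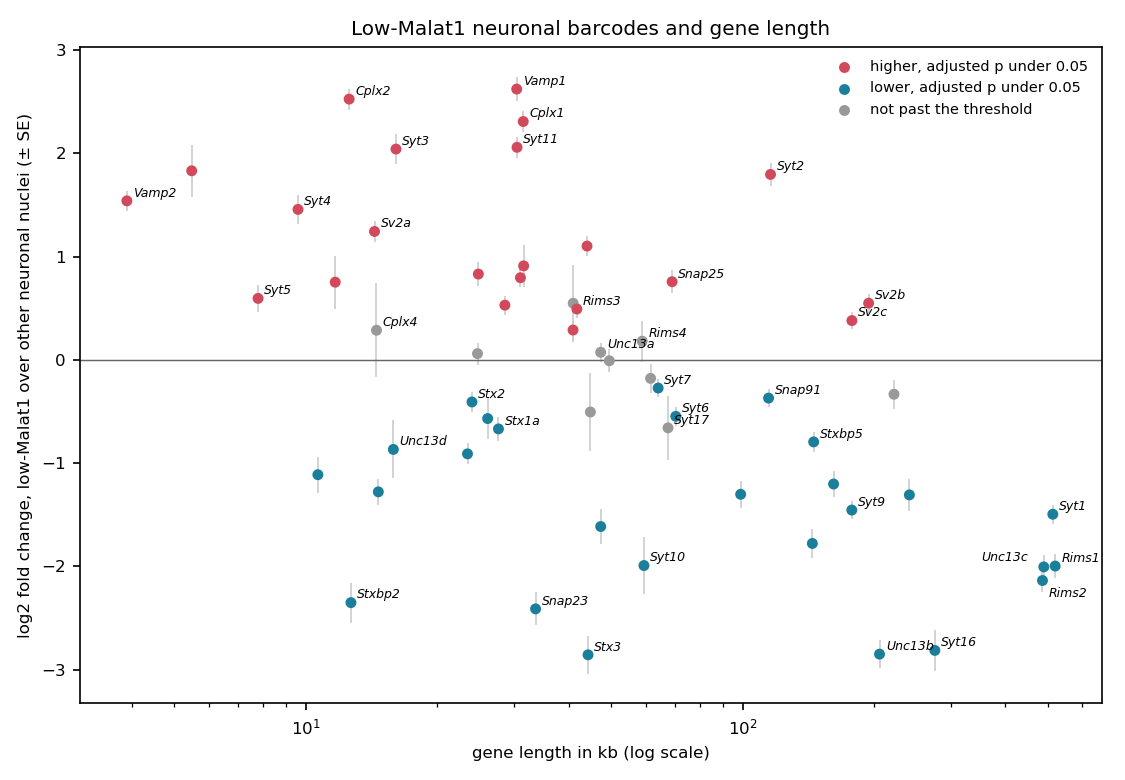
Each point is 1 of 59 of the 61 tested genes, with gene length in kb on a log axis against the log2 fold change of low-Malat1 over other neuron-like nuclei (bars, SE). Higher genes (red) such as Vamp2 and Cplx2 gathered among short genes and lower genes (blue) such as Rims1, Rims2 and Syt1 at the long end, with short exceptions such as Stxbp2.

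The difference went with gene length. Genes higher in low-Malat1 barcodes had a median length of 30.4 kb from start to end in GENCODE M21, and those lower one of 70.3 kb. Spearman's rho between length and the log2 fold change was -0.48 over the 61 genes. Over 17644 genes of 100 or more UMIs it was -0.42, with the change taken there as a plain difference of mean log2(CPM + 1). The values thus rest on unlike measures, and both describe genes that share libraries and depth. Rims1 (519.7 kb, chromosome 1 from 22286251 to 22805994 in GRCm38) was the longest. With age in the same barcodes, 4 genes were higher (among them Syt4 by 0.60 ± 0.12, Syt9 by 0.48 ± 0.14 and Stx12 by 0.44 ± 0.13) and 5 lower (5.23% and 8.23% of all genes). The 5 low-Malat1 clusters changed in share with age, Mrgprd-like ones giving 122 of 943 adult and 241 of 1026 and 112 of 414 aged barcodes, and the part of this was not tested. Within that cluster Syt4 was at 1038, 1109 and 1141 CPM and Syt9 at 219, 260 and 322 CPM, above the other low-Malat1 clusters. Of 40 other presynaptic genes 8 were higher with age and 4 lower in low-Malat1 barcodes, among them Slc17a7 (0.62 ± 0.13), Rab3c (0.58 ± 0.12), Dnm1 (0.58 ± 0.12), Syn3 (-0.84 ± 0.21) and Sncg (-0.79 ± 0.12). The 5 release genes lower with age were Rims1 (-0.77 ± 0.12), Syt1 (-0.53 ± 0.12), Sv2a (-0.53 ± 0.15), Stx8 (-0.52 ± 0.17) and Rims2 (-0.35 ± 0.12).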

How the data were processed

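Nuclei of mouse DRG were measured in 1 adult and 2 aged libraries. The authors ran PIPseeker to obtain the deposited tables, whose values are raw UMI counts for every gene in every barcode, and the labels name the mm10 build. No gene length enters these counts. Barcodes with more than 1000 genes were kept, normalised with SCTransform (sctransform 0.4.2), integrated by age and clustered in Seurat 5.3.0 without the release and other presynaptic genes, leaving 2965 features. Clusters were named from markers, classes with fewer than 20 nuclei in any library and mixed clusters were left out, and no doublet caller was run. Raw counts were summed per class or subtype and library and tested in edgeR 4.0.16 (TMM, filterByExpr, quasi-likelihood, Benjamini-Hochberg over all genes tested, threshold 0.05), with the library as a block except between ages. Calls were checked with RLE scaling, DESeq2 1.42.0, no filter, more than 2000 genes, subtraction of free RNA, classes from marker scores, and each library left out. Scripts were tested on simulated data. Genes named with values were 36 release core genes in the comparison by class and, in each comparison, up to 10 members called with the largest change in each direction, plus core paralogs and the 3 leading other presynaptic genes; not all of these are printed, and the subtype-matched values shown for low-Malat1 barcodes were chosen after they were seen. The members and lists were chosen with earlier results of these data known. Positions and lengths came from GENCODE M21 (GRCm38) and promoters from RefSeq. The depth of each library sets its precision, and errors cover the spread between 3 libraries, whose number of mice is not given. Between ages that spread comes from the aged pair alone. Some genes that entered the counts are not reported here.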

Additional observations from a re-analysis of the deposited data

Results flagged for a closer look

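In 6 genes the change with age differed between neuron-like and SGC-like nuclei by a test of the difference itself (edgeR, adjusted p under 0.05 over all genes), each from 1 adult and 2 aged libraries. The test has 1 residual degree of freedom, from the aged pair. Its p-values rest on a spread pooled over genes and do not measure spread between adult libraries. DESeq2 gave 1 such call, classes from marker scores 0, more than 2000 genes per nucleus 2 and low-Malat1 clusters counted as neuron-like 1. The neuronal minus the SGC log2 change was -2.31 for Syt10, with 0.19 in neuron-like and 2.49 in SGC-like nuclei. It was -0.67 for Snap25 (-0.41 and 0.27) and -0.66 for Rims1 (-0.28 and 0.39). It was 1.55 for Stx3, with 0.36 in neuron-like and -1.22 ± 0.64 in SGC-like nuclei. The remaining differences were 0.74 for Stxbp3 (0.31 and -0.44) and 0.65 for Sv2c, which changed by -0.64 in SGC-like nuclei and by 0.0011 in neuron-like ones. SGC-like nuclei came from a pair of clusters, one of which gave 1458 of 3334 adult but 92 of 436 and 30 of 232 aged nuclei, and the part of this was not tested. Since both classes come from the same 3 libraries and age is tied to the library, age and library cannot be told apart here either.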

How the results depend on the processing

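Differences between classes (49 genes called), subtypes (57) and low-Malat1 barcodes (51) stayed within 1.5 times those counts under each alternative, including the leaving out of a library (43 to 46, 51 to 53 and 46 to 49 calls). Calls with age did not. For the 5 calls in neuron-like nuclei, DESeq2 gave 3, subtraction of free RNA 0, and counting low-Malat1 clusters as neuron-like 1. For the 26 calls within subtypes DESeq2 gave 4, subtraction of free RNA 8, no filter on low counts 36 and classes from marker scores 15. For the 6 differences in age effect between neuron-like and SGC-like nuclei DESeq2 gave 1, more than 2000 genes per nucleus 2, marker scores 0 and low-Malat1 clusters counted as neuron-like 1. The cause was not tested. Age without a library leaves no residual degrees of freedom and has no test.

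Single genes turned direction in 27 of their alternative values. With marker scores these were Stx7 in neuron-like nuclei (0.084), Stx18 in Mrgprd-like (0.13) and Syt10 in cold-like nuclei (-0.24), Syt16 with age (-0.14), and Stx7 (-0.000105) and Vamp5 (-2.25) in low-Malat1 barcodes. In low-Malat1 barcodes set against their own subtype, an alternative chosen after seeing the data, they were Sv2c (-0.088), Syt10 (0.38), Syt12 (-0.058), Stx2 (0.064) and Vamp5 (-0.79) in Mrgprd-like nuclei, Vamp4 (-0.15), Stx11 (0.31), Sv2a (-0.67), Syt6 (1.12), Rims3 (-0.13) and Syt5 (-0.64) in peptidergic-like, Stx7 (-0.13), Syt7 (0.040) and Snap25 (-0.082) in C-LTMR-like, and Stx7 (-0.12), Syt7 (0.55), Snap25 (-0.061), Syt6 (1.84), Stx1a (0.57), Sv2b (-0.41) and Syt9 (0.14) in large-fiber-like nuclei, set against the Nxph1 subtype alone. A further 180 values lost the threshold, 2 gained it, 19 moved and 1784 kept their side. The marker-score thresholds were loosened after seeing the data. No paired analysis between ages was possible, since replicate numbers run within each age group and match no adult with an aged library. Depth limits genes of few UMIs.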
